A study of Arabidopsis thaliana with 15 samples.

Results

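Cells named for WUS and cells named for FIL, both sorted from the shoot apex of Arabidopsis thaliana, were compared on Affymetrix arrays. The comparison holds the arrays whose titles read WUSp cells (2 replicates) and FILp cells (3 replicates), which are 5 of the 15 arrays of the series. They were taken by title, and both the arrays and the gene lists were chosen with earlier results of these data known. The other arrays used here are CLV3p and CLV3n (3 each), which enter the fit to share its estimate of spread, and a pair of groups labelled Protoplast Induced and Uninduced (2 each), which give a reading of what protoplast preparation does to a gene. The design text states that CLV3n lacks the CLV3p cell type. All groups share plants of 24 days of age, total RNA and a biotin label. The labels give no genotype, strain, treatment or reporter for WUSp or FILp, so what drives the reporter of each sort, and any allele that all plants carry, is not known from the sources used here.

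WUS (WUSCHEL) is a homeodomain transcription factor of the organizing centre, a small group of cells in the inner part of the meristem that keeps the stem cells above it undifferentiated. FIL (FILAMENTOUS FLOWER) is a YABBY transcription factor of the young lateral organs that form on the flank of the meristem, where it marks the lower (abaxial) side. Organ initiation on the flank follows local accumulation of auxin, while cytokinin signalling is known to act around the organizing centre.

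Every probe set had 1 linear MAS5 signal per array. Over all probe sets, which are not independent of each other, Spearman's correlation was 0.970 between the 2 WUSp arrays, 0.969 between FILp arrays and 0.936 to 0.946 between WUSp and FILp arrays. Several array controls differed between the groups in the same direction on every array. The hybridisation control bioC had signals of 785 and 899 on the WUSp arrays and of 281 to 331 on the FILp arrays, so that WUSp fell into the class of sorted arrays above 500 and FILp into the class below it. Another hybridisation control, cre, went the other way, with 9204 and 10034 on WUSp and 11594 to 14374 on FILp, and bioB was close (265 and 300 against 247 to 264). Poly-A spike controls had mean log2 signals of 6.99 and 6.86 on WUSp against 7.76 to 8.10 on FILp. The ubiquitin 3′/5′ ratio was log2 0.74 and 1.04 on WUSp against 1.51 to 1.67 on FILp, and the 25S ribosomal RNA control was 18406 to 18502 against 23685 to 26778. Since no bioC class holds both groups, class and population cannot be told apart within these 5 arrays, and a fit with the class as a block ties them only through CLV3p and CLV3n.

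The labels could be checked in part. WUS and FIL have no probe set that the probe table names, so neither was read. YAB5 and YAB3, relatives of FIL, were highest on the FILp arrays of all 11 arrays of sorted cells, and the WUSp arrays were far below them. CLV3, the peptide gene of the stem cells, had signals of 58.0 and 76.1 on WUSp 1 and 2, against 569 to 1220.4 on the CLV3p arrays, so the sort named for WUS held a low CLV3 signal. UFO, which is read here as a marker on the WUSp side, was high on WUSp but also on CLV3p (1004 to 1484) and CLV3n (767 to 1474), and FILp was the lowest of the sorts.

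Of 15052 probe sets tested over the 11 arrays of sorted cells, 2253 passed the threshold of 0.05 (limma, Benjamini-Hochberg adjusted over all tested probe sets), which is 15%. Those higher in WUSp numbered 1096 (7.28%) and those lower 1157 (7.69%). A fold of at least 2 was reached by 1341 of them, 656 higher (4.36%) and 685 lower (4.55%). Folds of at least 8 were more often on the FILp side, with 71 probe sets higher and 172 lower in WUSp, or 51 and 132 when signals under 19.5 were raised to that value. That value, the 20th percentile of all signals, is used below as a floor because the order of lower signals carries little information, and differences computed with it are called floored. The median log2 difference over all tested probe sets, WUSp minus FILp, was -0.03, and 52% of tested probe sets had WUSp and FILp arrays that did not overlap. WUSp has only 2 arrays, and leaving out WUSp 1, WUSp 2 or FILp 3 left 980, 1246 and 1413 calls. With the bioC class as a block 1872 probe sets passed, and 1309 of them were among the 2253.

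**Figure D1:**
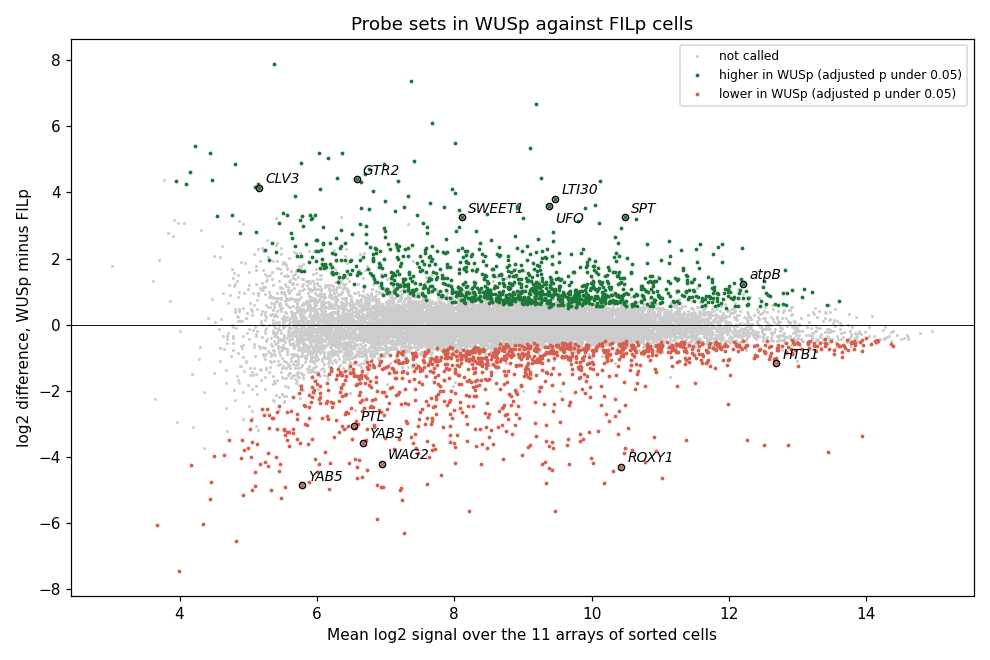
Each point is 1 tested probe set, with its mean log2 signal over the 11 arrays of sorted cells on the x axis and its log2 difference (WUSp minus FILp) on the y axis. Green and red points passed the adjusted threshold of 0.05 (1096 higher and 1157 lower in WUSp), grey points did not, and circled points are genes named in the text.

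The YABBY genes of the organ side were low in WUSp and high in FILp. These genes encode transcription factors of the abaxial side of leaves and floral organs. YAB5 (AT2G26580) had signals of 7.80 and 31.0 on WUSp 1 and 2 and of 434, 429 and 489.5 on FILp 1, 2 and 3. Its groups did not overlap, and both WUSp arrays were near or under the floor. The log2 difference was -4.85 ± 0.73 (SE, n = 2 and 3; limma adjusted p = 0.00029) and -4.19 when floored. YAB3 (AT4G00180) had 45.9 and 24.4 on WUSp and 389.8, 361 and 443 on FILp, a log2 difference of -3.57 ± 0.46 (adjusted p = 6.8e-05). The CLV3n arrays lay between, with 120.4 to 169.6 for YAB5 and 130.0 to 219.5 for YAB3, and the CLV3p arrays were as low as WUSp. INO, a YABBY gene known from the outer integument of the ovule, had low signals of 20.3 and 38.5 and 50.9, 112 and 84.5, and its difference of -1.49 ± 0.58 did not pass (limma adjusted p = 0.1). INO was called lower with array weights (0.04) and in a fit of all 15 arrays (0.049). Of the 3 YABBY genes measured and tested, 0 were called higher and 2 lower (7.69% of all tested probe sets were called lower), with a median log2 difference of -3.57 against -0.03 over all tested probe sets. In these sorted samples fewer cells of a type and less RNA per cell cannot be told apart.

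Some genes of floral organ initiation and 1 of 2 tested organ boundary genes, PTL, were called lower in WUSp. Of all tested probe sets 7.69% were called lower. ROXY1 (AT3G02000), a glutaredoxin needed for petal initiation, had signals of 335 and 577 on the WUSp arrays and of 8429.7, 7792 and 9945 on the FILp arrays. It was 19.7-fold lower in WUSp, a log2 difference of -4.30 ± 0.31 (SE, n = 2 and 3; limma adjusted p = 2.5e-07), while CLV3p had 183 to 285 and CLV3n 1752 to 3647. PTL (AT5G03680), a trihelix factor that limits growth between sepals, had 28.6 and 59.9978 on WUSp and 301, 354 and 389.9 on FILp. Its arrays did not overlap (log2 difference -3.06 ± 0.45, adjusted p = 0.00021), and CLV3n, at 254 to 353, overlapped FILp. LAS, a GRAS factor of leaf axil boundaries, had 59.9 and 50.8 on WUSp and 75.6, 87.8 and 85.9 on FILp, and its difference of -0.59 ± 0.33 did not pass (limma adjusted p = 0.27). LAS was highest on the CLV3n arrays (166 to 216), so the boundary genes did not share 1 pattern over the sorts.

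PUCHI (AT5G18560), an AP2-type factor of floral meristem identity, had signals of 81.9 and 158 on WUSp and 905, 608 and 458 on FILp, a log2 difference of -2.47 ± 0.39 (SE, n = 2 and 3; limma adjusted p = 0.00056). SHI, a zinc-finger gene of the family that promotes auxin synthesis in organs, had 26.8 and 53.1 and 139.6, 159 and 171, a difference of -2.05 ± 0.35 (adjusted p = 0.00085). For both genes every FILp array was above every WUSp array. SHI was, however, higher on CLV3p (207 to 225) than on FILp, whereas PUCHI was low there (65.5 to 162). The MADS-box genes AGL72 and AGL42, relatives of the flowering gene SOC1, were also lower in WUSp, by log2 differences of -1.53 ± 0.36 (adjusted p = 0.0089) and -0.83 ± 0.25 (adjusted p = 0.035). AGL72 did not pass without WUSp 1 (adjusted p = 0.088) or with the bioC class as a block (0.12), and AGL42 did not pass with that block (0.13), without either WUSp array (0.055 and 0.32), or without FILp 1 (0.089) or FILp 3 (0.12). The floral and MADS-box list had 57 measured genes, of which 17 passed the filter on low values, 2 were called higher and 5 lower (3 without WUSp 1 and 3 with the bioC class as a block), or 41.2% called against 15% of all tested probe sets, with a median log2 difference of -0.46. The organ shape genes JAG, NUB and RBE and the ROXY1 relative ROXY2 did not pass the filter.

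The 2 floral genes called higher in WUSp were UFO and SPT. UFO (AT1G30950), an F-box protein that works with LFY in floral meristems, had signals of 1789.7 and 1525 on the WUSp arrays and of 144, 111 and 165 on the FILp arrays. It was 11.96-fold higher in WUSp (log2 difference 3.58 ± 0.27, SE, n = 2 and 3; limma adjusted p = 3.2e-07), and the groups lay far apart. SPT (AT4G36930), a basic helix-loop-helix factor of carpel margin development, had 3385 and 2878 on WUSp and 328, 362 and 300.4 on FILp. This was a difference of 3.25 ± 0.18 (adjusted p = 1.1e-08), and CLV3p had 3300.1 to 4015, near the WUSp level. For both genes FILp was the lowest of the 4 sorts.

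CLV3 (AT2G27250) was 58.0 and 76.1 on the WUSp arrays and 1.83, 6.02 and 4.77 on the FILp arrays, which all lay under the floor. The log2 difference was 4.15 ± 0.72 (SE, n = 2 and 3; limma adjusted p = 0.00097) but only 1.77 when floored, so its size rests on FILp signals that cannot be ordered. The other tested meristem regulators did not pass. ULT1, a SAND-domain regulator of meristem size, had 1807 and 2893 on WUSp and 2089, 2079 and 2780.3 on FILp, and these arrays overlapped (log2 difference -0.01 ± 0.27, limma adjusted p = 0.99). POL, a phosphatase of the CLV pathway, differed by 0.47 ± 0.19 (adjusted p = 0.13) and OBE1, a PHD-finger protein of meristem maintenance, by 0.35 ± 0.19 (adjusted p = 0.26). Of these 4 meristem genes 1, CLV3, was called higher and 0 lower (25%, against 15% of all tested probe sets). In a fit of only the 5 arrays compared CLV3 did not pass the filter on low values, and 0 were called higher. PHV, an HD-ZIP III factor of the upper (adaxial) side, had 1891 and 1946 on WUSp and 2045, 1930.0 and 2546 on FILp. Its difference of -0.17 ± 0.17 did not pass (limma adjusted p = 0.58), while the abaxial genes YAB3 and YAB5 did.

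REM-type B3 genes, a family of DNA-binding proteins named for expression in reproductive meristems, had 2 members called higher in WUSp and 0 lower among 4 tested of 6 measured, against 7.28% of all tested probe sets called higher. REM23 (AT2G35310) had signals of 541 and 693 on WUSp and 104, 108 and 97.3 on FILp, a log2 difference of 2.57 ± 0.24 (SE, n = 2 and 3; limma adjusted p = 2.5e-06). REM35 (AT4G31615) had 618 and 591 and 349.8, 348 and 321, a difference of 0.83 ± 0.18 (adjusted p = 0.0046) that did not pass without WUSp 1 (0.06). Both were highest on CLV3p, at 778 to 1036 and 867 to 1095. The other tested members, REM22 and AT2G16210, differed by -0.57 and 0.15 without passing.

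**Figure D2:**
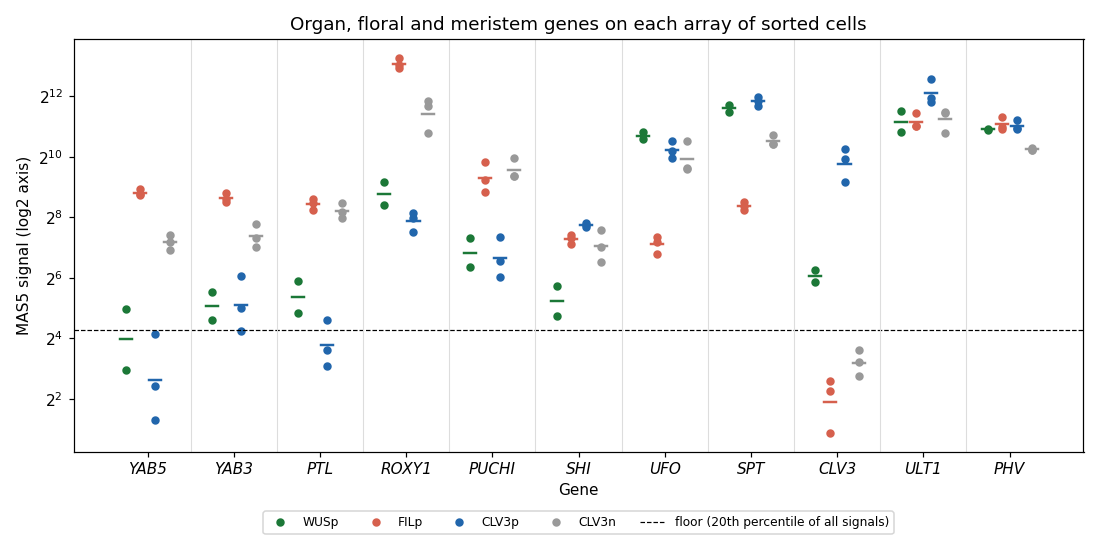
Points are the MAS5 signals (log2 axis) of 11 organ, floral and meristem genes on each array of WUSp, FILp, CLV3p and CLV3n, short lines are group means of the log2 signals, and the dashed line is the floor of 19.5. YAB5, YAB3, PTL, ROXY1, PUCHI and SHI are lower on both WUSp arrays than on all 3 FILp arrays, UFO, SPT and CLV3 are higher, and ULT1 and PHV overlap.

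Genes that respond to auxin were lower in WUSp, with 6 called lower and 1 higher among 9 tested of 15 measured, or 77.8% called against 15% of all tested probe sets (median log2 difference -1.20, and -1.32 with the bioC class as a block). Without WUSp 2, 3 were called lower. The list holds Aux/IAA genes, whose proteins repress auxin response and are themselves induced by auxin, and GH3 genes, whose enzymes conjugate auxin to amino acids. IAA20 (AT2G46990) had signals of 32.5 and 48.5 on WUSp and 334, 264 and 291 on FILp, a log2 difference of -2.89 ± 0.54 (SE, n = 2 and 3; limma adjusted p = 0.0017). IAA29 had 17.6 and 23.4 and 121, 103 and 104, a difference of -2.43 ± 0.48 (adjusted p = 0.0029). For both, every FILp array exceeded every WUSp array several-fold. GH3.3 (AT2G23170) had 549.9 and 276 on WUSp and 2678, 1858 and 1984 on FILp (log2 difference -2.46 ± 0.44, limma adjusted p = 0.0023), and CLV3p was lower still (17.6 to 59.1). GH3.17 had 61.8 and 36.8 and 192, 387 and 350.3, a difference of -2.64 ± 0.62 (adjusted p = 0.009) that did not pass without WUSp 2 (0.1).

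WES1, which is GH3.5, and HAT2, an auxin-induced HD-ZIP II factor, fell by less. WES1 had signals of 758 and 666 on WUSp and 1318, 1816 and 1407 on FILp, a log2 difference of -1.08 ± 0.27 (SE, n = 2 and 3; limma adjusted p = 0.015). It did not pass without WUSp 1 (0.07), WUSp 2 (0.12) or FILp 2 (0.056), or with the bioC class as a block (0.065). HAT2 had 700.0 and 591 and 1439, 1208 and 1210.0, a difference of -0.99 ± 0.21 (adjusted p = 0.0049), which did not pass without WUSp 2 (0.072). IAA18 went the other way, with 1792 and 1989 on WUSp and 1367, 925 and 1129 on FILp (difference 0.75 ± 0.19, limma adjusted p = 0.016), and it did not pass without WUSp 1 (0.074), WUSp 2 (0.14) or FILp 2 (0.067), or with the bioC class as a block (0.063). IAA30 and IAA34 differed by -1.20 and -0.18 without passing. Both WUSp arrays were the highest of the 11 sorted arrays for IAA18.

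Among genes of auxin synthesis and transport, 1 was called lower and 1 higher of 4 tested and 6 measured (50%, against 15% of all tested probe sets). WAG2 (AT3G14370), an AGC kinase that phosphorylates PIN auxin exporters, had signals of 20.9 and 17.7 on WUSp and 438, 349 and 289 on FILp. It was 18.4-fold lower in WUSp (log2 difference -4.20 ± 0.29, SE, n = 2 and 3; limma adjusted p = 1.1e-07), and both WUSp arrays were at the level of the floor. WUSp was also below CLV3p (79.0 to 96.7) and CLV3n (187 to 245). YUC4, a flavin monooxygenase of auxin synthesis, had 167 and 205 on WUSp and 112, 93.0 and 119.8 on FILp, with no overlap. Its difference of 0.78 ± 0.24 was near the threshold (limma adjusted p = 0.041) and did not pass when any 1 of the 5 arrays was left out (adjusted p from 0.062 without FILp 3 to 0.28 without WUSp 2) or with the bioC class as a block (0.091). Both sorts were well below CLV3p for YUC4 (789 to 1173). The kinase gene PID2 and the synthesis gene YUC2 differed by -0.88 and -0.74 without passing.

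Few cytokinin and gibberellin genes could be read. ARR15 (AT1G74890), a type-A response regulator induced by cytokinin that dampens its signal, had signals of 111 and 283 on WUSp 1 and 2 and 48.2, 66.5 and 67.1 on FILp. The WUSp arrays differed from each other by more than any pair of FILp arrays but lay above all of them (log2 difference 1.57 ± 0.42, SE, n = 2 and 3; limma adjusted p = 0.019). The call did not hold without WUSp 2 (adjusted p = 0.34) or without FILp 1 (0.064). RR18, a type-B regulator that activates cytokinin targets, had 128 and 81.5 on WUSp and 38.8, 49.9 and 46.5 on FILp, and its difference of 1.19 ± 0.41 did not pass (limma adjusted p = 0.067). RR18 was called higher with array weights (0.022), when floored (0.048) and with a moderation of variances neither mean-dependent nor robust (0.013). PUP15, of the purine permease family, differed by -0.14. The cytokinin list thus had 1 gene called higher and 0 lower among 3 tested of 7 measured (33.3%, against 15% of all tested probe sets).

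GID1B, 1 of 3 gibberellin receptors, had signals of 674 and 565 on WUSp and 320.5, 339 and 296 on FILp (log2 difference 0.96 ± 0.27, SE, n = 2 and 3; limma adjusted p = 0.027). It did not pass without WUSp 1 (0.22), WUSp 2 (0.082), FILp 1 (0.063) or FILp 3 (0.088). The receptors GID1A and GID1C and the F-box gene SLY1, whose protein marks DELLA repressors for breakdown, did not pass. GID1C had 142 and 214 on WUSp and 118, 106 and 100.2 on FILp (difference 0.69), GID1A differed by 0.35 and SLY1 by -0.60. SLY1 was called lower with the bioC class as a block (0.041), with array weights (0.019) and with all 15 arrays (0.043). It was also called lower with only the 5 arrays compared (0.032) and without CLV3n 1 and CLV3p 1 (0.039). All 3 receptors had positive differences and the arrays of each did not overlap, but 1 was called. Of all tested probe sets 52% did not overlap and 15% were called. BRL1, a brassinosteroid receptor, differed by -0.82 (adjusted p = 0.19; 0.035 with that block).

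**Figure D3:**
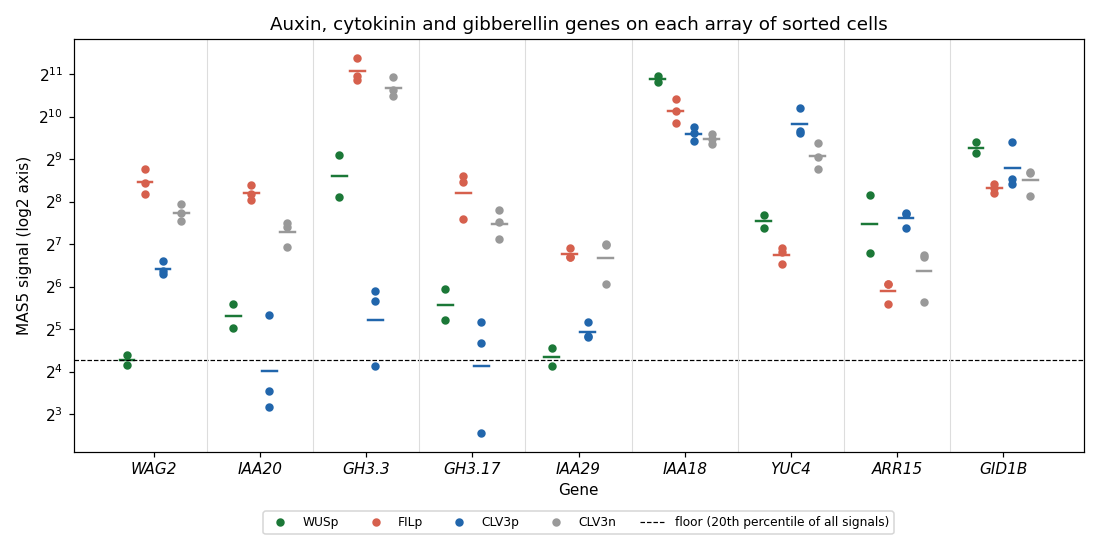
Points are the MAS5 signals (log2 axis) of 9 auxin, cytokinin and gibberellin genes on each array of the 4 sorts, with group means of the log2 signals as short lines and the floor of 19.5 dashed. WAG2, IAA20, GH3.3, GH3.17 and IAA29 are lower on both WUSp arrays than on all FILp arrays, and IAA18, YUC4, ARR15 and GID1B are higher.

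All 7 measured histone genes had lower signals in WUSp by group mean, and 3 were called lower (2 with the bioC class as a block, against 7.69% of all tested probe sets called lower in the fit without it), with median log2 differences of -0.67 and of -0.72 with the block. Histone genes are transcribed mainly in S phase. HTB1 (AT1G07790), which encodes histone H2B, had signals of 3502 and 3286 on WUSp and 7968, 6797 and 8241 on FILp. The FILp arrays were at the level of CLV3p (6941 to 7889) and CLV3n (7374 to 8539.8), and the WUSp arrays were below all of these (log2 difference -1.17 ± 0.15, SE, n = 2 and 3; limma adjusted p = 5.7e-05). HTB2 had 354 and 366 on WUSp and 621, 509 and 599.8 on FILp (difference -0.67 ± 0.19, limma adjusted p = 0.024), and HTB4 7803 and 11837 and 15329, 16198 and 16286 (difference -0.73 ± 0.23, adjusted p = 0.041). Both calls were weak. HTB2 did not pass without WUSp 1, WUSp 2, FILp 1 or FILp 3 (adjusted p from 0.081 to 0.16), and HTB4 did not pass without WUSp 1 or any 1 FILp array (from 0.079 to 0.43). HTB2 was also not called with the bioC class as a block (0.13) and HTB4 not with quantile normalization (0.2), and neither was called with arrays centred on their medians (0.05 and 0.052). H2B genes are near-identical in sequence, so a probe set may read more than 1 of them. HTB11 differed by -0.59 (adjusted p = 0.059), and HON4, HTR12 and HIS1-3 by -0.18, -0.22 and -1.04.

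Of the other lists of dividing cells, that of the cell cycle had calls and those of DNA replication, DNA repair and chromatin had 0. Among 7 tested cell cycle genes of 8 measured, 0 were called higher and 2 lower, with a median of 0.01. This was 28.6% called, against 15% of all tested probe sets. ATMAP65-6, a microtubule-bundling protein, had signals of 1151 and 1282 on WUSp and 2032, 2413 and 1974 on FILp (log2 difference -0.81 ± 0.19, SE, n = 2 and 3; limma adjusted p = 0.0074), and it did not pass without WUSp 1 (0.097). AUR1, an Aurora kinase of mitosis, had 1348 and 1143 and 1711, 1737 and 1974 (difference -0.54 ± 0.16, limma adjusted p = 0.037), a call that did not hold when any 1 of the 5 arrays was left out (0.065 to 0.29) or with the bioC class as a block (0.08). The other Aurora kinases AUR2 and AUR3 differed by 0.13 and 0.01, and the spindle checkpoint genes BUB3.1, BUB3.2 and BUBR1 by 0.13, 0.35 and -0.63, none of which passed. Of 6 DNA replication genes 0 were called in either direction (median 0.19), and the same held for 14 DNA repair genes (median -0.04) and 13 chromatin genes tested of 15 (median 0.24), although with the bioC class as a block 1 repair gene was called higher and 1 chromatin gene in each direction. In the chromatin list the largest difference was that of the remodeller CHR42, with 405 and 225 on WUSp and 64.9, 257 and 192 on FILp, whose arrays overlapped (difference 1.03 ± 0.45, limma adjusted p = 0.15). PGY1, a cytosolic ribosomal protein gene known for its role in leaf polarity, had 4112 and 4311 on WUSp and 7311, 5334 and 7086 on FILp (difference -0.63 ± 0.16, adjusted p = 0.016) and did not pass without WUSp 1 (0.13), WUSp 2 (0.077), FILp 1 (0.071) or FILp 3 (0.068). The second ribosomal protein gene, AT1G77750, differed by -0.17.

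Transcripts of the plastid genome were higher on the WUSp arrays, and 11 were called higher and 0 lower of 59 tested and 69 measured (18.6%, against 7.28% of all tested probe sets). The median log2 difference was 0.87, with 54 positive and 5 negative. The arrays of 45 of the 59 transcripts did not overlap, which held for 52% of all tested probe sets. Without WUSp 1, FILp 2 or FILp 3 the number called higher was 2, 7 and 5. These transcripts encode subunits of the photosystems, the cytochrome complex, the ATP synthase, the NADH dehydrogenase-like complex and the plastid's own ribosome. The gene atpB, for a subunit of the ATP synthase, had signals of 10255 and 8769 on WUSp and 4409, 4179.8 and 3599.7 on FILp (log2 difference 1.23 ± 0.23, SE, n = 2 and 3; limma adjusted p = 0.0015). The gene accD, for a subunit of acetyl-CoA carboxylase, had 351 and 320.4 and 155, 124.99 and 149.9 (difference 1.23 ± 0.23, adjusted p = 0.002). Each WUSp array was at least 2-fold above the mean of the FILp arrays for both. The largest called difference was that of ndhD (3177 and 2351 on WUSp, 943, 885 and 553 on FILp, difference 1.82 ± 0.53, limma adjusted p = 0.041), and it did not pass without any 1 of the 5 arrays (0.07 to 0.24) or with the bioC class as a block (0.47). The calls for cemA, ndhA and atpA did not hold without WUSp 1 (0.11, 0.13 and 0.1), nor that for atpA without FILp 3 (0.05). The gene rpoA, for a subunit of the plastid RNA polymerase, went the other way with 5909 and 3828 on WUSp and 10482, 10480.2 and 9748 on FILp, and its difference of -1.10 ± 0.37 did not pass (adjusted p = 0.068).

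The plastid difference moved with array properties. With the bioC class as a block the median fell to 0.39 and 7 transcripts were called higher. Relative to the FILp mean, the median transcript was 1.03 and 0.70 higher on WUSp 1 and 2, and the CLV3p and CLV3n arrays spanned 0.18 to 0.89, so it was also high on sorts other than WUSp. After protoplast preparation 55 of the 57 transcripts tested in that pair were called higher (median log2 difference 1.55), against 10.5% of the 13911 probe sets tested there. The 11 transcripts called higher in WUSp were all called higher there too. The part of protoplast preparation in the difference between WUSp and FILp was not tested.

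Nuclear genes of photosynthesis had few calls. Of 17 tested, 2 were called higher and 0 lower (11.8%, against 15% of all tested probe sets), with a median log2 difference of 0.11 (-0.14 with the bioC class as a block, where 0 were called higher and 2 lower). RCA, which activates Rubisco, had signals of 2652 and 2645 on WUSp and 1273, 1616 and 1389 on FILp (log2 difference 0.90 ± 0.20, SE, n = 2 and 3; limma adjusted p = 0.0052). HEMA2, for an enzyme early in tetrapyrrole synthesis, had 608 and 421 and 283, 336 and 225 (difference 0.87 ± 0.25, adjusted p = 0.028). Both were above all FILp arrays, and neither passed without WUSp 1 (0.055 and 0.33), nor did HEMA2 without FILp 1 (0.062) or FILp 3 (0.12). Neither passed with the bioC class as a block (0.099 and 0.24). Both genes were also called in the protoplast pair, and with probe sets called there removed 0 of this list were called higher. The antenna gene LHCB4.1 had 2656 and 2348 on WUSp and 1732, 3122 and 2067 on FILp, which overlapped.

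**Figure D4:**
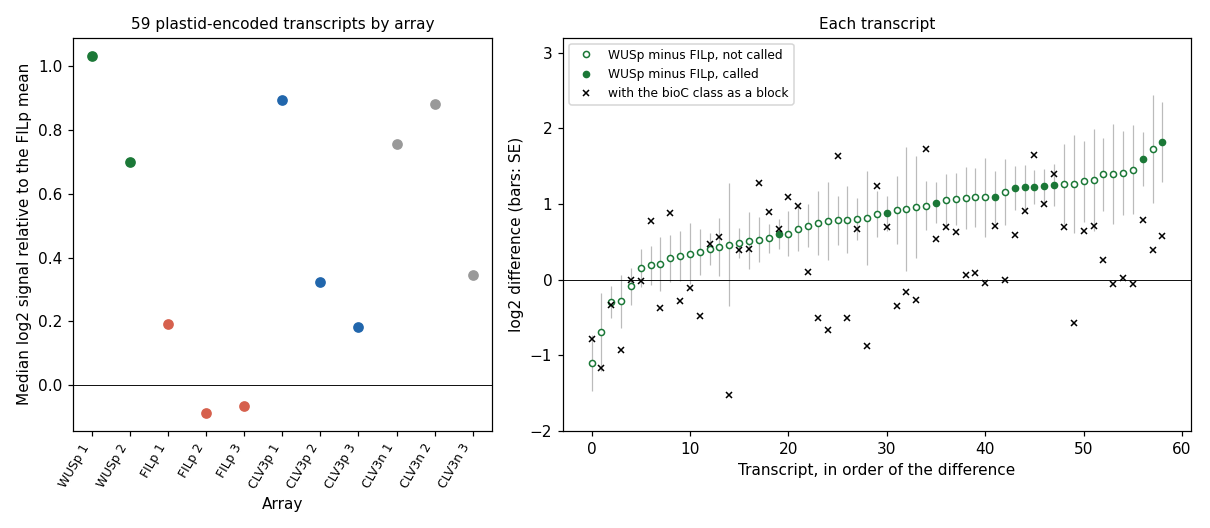
Left, the median over 59 plastid-encoded transcripts of the log2 signal on each of the 11 sorted arrays, relative to the FILp mean. Right, the log2 difference of each transcript (WUSp minus FILp) with its SE as bars, filled where called, and as crosses the same difference with the bioC class as a block. Of the transcripts 54 lie above 0 and 11 were called, and the block scatters the differences around a lower median.

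Some genes of cell wall loosening were called higher in WUSp. XTH genes encode enzymes that cut and rejoin xyloglucan, and expansins loosen the wall without cutting it. Of 12 tested among 28 measured, 4 were called higher (2 without WUSp 1) and 1 lower, or 41.7% called against 15% of all tested probe sets, with a median log2 difference of 0.41. The block by bioC class left 1 called higher and 0 lower. XTH18 (AT4G30280) had signals of 637 and 494 on WUSp and 151, 146 and 106 on FILp (log2 difference 2.08 ± 0.29, SE, n = 2 and 3; limma adjusted p = 0.00013). EXLA1 had 2352 and 1259 and 323, 625 and 619 (difference 1.78 ± 0.33, adjusted p = 0.0018), and EXLA2 1267 and 977 and 579, 634 and 492 (difference 0.98 ± 0.19, adjusted p = 0.0028). In these 3 genes the WUSp arrays lay above all FILp arrays, and for XTH18 also above all arrays of the other sorts. With the bioC class as a block XTH18 passed (0.0066) and EXLA1 (0.057) and EXLA2 (0.07) did not, and EXLA2 did not pass without WUSp 1 (0.075).

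XTH19 had signals of 220.1 and 139 on WUSp and 46.4, 48.6 and 2.40 on FILp. Its difference of 3.31 ± 0.98 (SE, n = 2 and 3; limma adjusted p = 0.037) was 2.31 when floored, and it did not pass without WUSp 1 (0.22) or WUSp 2 (0.11), with the bioC class as a block (0.18) or in a fit of only the 5 arrays compared (0.12). EXPA15 went the other way, with 1943 and 2594 on WUSp and 4096, 3859.9 and 4804 on FILp (difference -0.92 ± 0.25, limma adjusted p = 0.02), and did not pass without WUSp 1 (0.23) or FILp 3 (0.079), or with the bioC class as a block (0.44). Among wall synthesis genes 2 were called higher and 0 lower of 13 tested and 19 measured (15.4%, against 15% of all tested probe sets, median 0.10). CSLC12, of a family that makes the xyloglucan backbone, had 459.5 and 358 on WUSp and 147, 143 and 138 on FILp (difference 1.51 ± 0.23, limma adjusted p = 0.00038). CSLD2, of a family known from root hair walls, had 4711 and 3915 and 2622, 2251 and 2423 (difference 0.82 ± 0.20, adjusted p = 0.012) and did not pass without WUSp 1 (0.15) or with the bioC class as a block (0.13).

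Epidermal genes were lower in WUSp, with 0 called higher and 3 lower among the 3 tested of 7 measured, against 7.69% of all tested probe sets called lower (median log2 difference -2.60, or -1.73 floored). Of these, 2 were called lower with the bioC class as a block. In a fit of only the 5 arrays compared 1 was called lower, and SHN3 and CER26 did not pass the filter on low values. CR4 (AT3G59420), a receptor kinase of epidermal cell identity, had signals of 163 and 170.3 on WUSp and 518, 502 and 646 on FILp (log2 difference -1.73 ± 0.19, SE, n = 2 and 3; limma adjusted p = 1.5e-05). It was also high on CLV3p (557 to 722) and CLV3n (437 to 476), and both WUSp arrays were below all arrays of the other 3 sorts. SHN3, an AP2-type factor of cutin synthesis, had 6.32 and 15.97 on WUSp and 74.7, 45.8 and 65.9 on FILp (difference -2.60 ± 0.43, floored -1.64, limma adjusted p = 0.00065), and CLV3p was far higher (375 to 628). CER26 (AT4G13840), of cuticular wax synthesis, had 3.68 and 3.79 on WUSp, under the floor, and 74.5, 75.9 and 61.5 on FILp. Its difference of -4.24 ± 1.14 (limma adjusted p = 0.019) was -1.85 when floored, which did not pass (0.055). It also did not pass without WUSp 1 (0.098), WUSp 2 (0.081), FILp 2 (0.067) or FILp 3 (0.068), or with the bioC class as a block (0.1). Summed over the 7 genes, signals were 231 to 241 on WUSp and 706 to 882 on FILp, and the stomatal genes MUTE and SPCH were under the floor on all 5 arrays. The share of epidermal cells in each sort was not tested.

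Of markers of other cell types, 5 vascular, senescence and tapetum genes were tested and 2 were called (15% of all tested probe sets were called). The vascular genes LHW, BRL1 and OPS were not called, but BRL1 was called lower with the bioC class as a block (0.035) and LHW was called lower under 5 alternatives, among them array weights (0.024). These 3 genes had summed signals of 1409.6 to 1677 on WUSp and 1862 to 2561 on FILp. SAG101, a lipase-like gene of leaf senescence and immunity, was called higher, with 939.8 and 672 on WUSp and 265, 192 and 236 on FILp (log2 difference 1.80 ± 0.30, SE, n = 2 and 3; limma adjusted p = 0.00066). SAG101 was also called in the protoplast pair. The other senescence gene, SAG29, did not pass the filter, with 13.7 and 58.0 on WUSp and 5.13, 62.6 and 12.1 on FILp. EMS1, a receptor kinase of the anther tapetum, had 1301 and 1275 on WUSp and 2099, 1975 and 1916 on FILp (difference -0.63 ± 0.20, limma adjusted p = 0.049), a call that did not hold when any 1 of the 5 arrays was left out (0.097 to 0.21). AMS, a tapetum factor, did not pass the filter. Of 4 organ growth genes ARL and TCP15 were tested, and they differed by -0.18 and -0.42 without passing.

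Families of secondary metabolism and detoxification split in both directions. Over glutathione transferases, CYP71B cytochromes P450 and UDP-glycosyltransferases, 7 were called higher and 6 lower in WUSp among 33 tested of 68 measured (39.4%, against 15% of all tested probe sets), with a median log2 difference of -0.30. Without WUSp 1, 3 were called lower, and with the bioC class as a block 5 were called higher and 8 lower. All 3 called CYP71B genes were lower. CYP71B22 (AT3G26200) had signals of 20.2 and 32.7 on WUSp and 549.6, 385 and 482 on FILp (log2 difference -4.19 ± 0.44, SE, n = 2 and 3; limma adjusted p = 8.2e-06). CYP71B23 had 4.55 and 36.6 and 182, 136 and 228 (difference -3.79 ± 0.86, floored -2.74, adjusted p = 0.007) and did not pass without WUSp 1 (0.13). CYP71B5 had 12.1 and 21.9 and 136, 159 and 129.7 (difference -3.12 ± 0.39, limma adjusted p = 4.4e-05). CYP71B22 and CYP71B23 were also low on CLV3p (14.7 to 41.2 and 2.12 to 3.21), while CYP71B5 overlapped FILp there (145 to 190.0). CYP71B34 differed by -1.32 (adjusted p = 0.057), and CYP71B27, CYP71B28, CYP71B37 and CYP71B6 had smaller negative differences that did not pass.

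The glycosyltransferases of flavonols opposed each other. UGT78D1 (AT1G30530), which adds rhamnose to flavonols, had signals of 57.5 and 173 on WUSp and 1099.9, 1218 and 1154 on FILp (log2 difference -3.54 ± 0.36, SE, n = 2 and 3; limma adjusted p = 1.1e-05). UGT78D3, which adds arabinose, had 80.4 and 146 and 22.4, 12.8 and 18.7 (difference 2.63 ± 0.57, adjusted p = 0.005), and UGT78D2, which adds glucose, had 3449 and 3311 and 1707, 2272 and 1576 (difference 0.89 ± 0.18, adjusted p = 0.0027). UGT78D1 was thus on the FILp side with no overlap, and its relatives on the WUSp side, although UGT78D3 did not pass without WUSp 2 (0.11). UGT74D1, which glucosylates auxin-related compounds, had 316 and 178 on WUSp and 30.7, 62.2 and 59.1 on FILp (difference 2.29 ± 0.37, limma adjusted p = 0.00052). UGT76C2, which glucosylates cytokinins, had 1271 and 1372 and 376, 659 and 489.8 (difference 1.42 ± 0.22, adjusted p = 0.00043). Both hormone glucosyltransferase genes were higher on each WUSp array than on any FILp array. UGT71B1 was also called higher, with 1417 and 1129.6 and 319.6, 469.9 and 366 (difference 1.73 ± 0.22, limma adjusted p = 5.7e-05).

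Among genes of sulfur and glucosinolate metabolism, 3 were called higher and 0 lower of 5 tested and 7 measured (7.28% of all tested probe sets were called higher), with a median log2 difference of 1.29. The block by bioC class gave 1 called higher and 1 lower and a median of 0.68. GTR2 (AT5G62680), a transporter that imports glucosinolates, had signals of 707 and 655 on WUSp and 18.1, 44.0 and 41.7 on FILp (log2 difference 4.40 ± 0.64, SE, n = 2 and 3; limma adjusted p = 0.00031). Its relative GTR1 had 2177 and 2483 and 924, 1372 and 677 (difference 1.29 ± 0.29, adjusted p = 0.0079). For both genes the WUSp arrays were the highest of the 11 sorted arrays, with CLV3n at 119 to 208 for GTR2 and 493 to 941 for GTR1. With the block the difference of GTR2 was 2.83 (limma adjusted p = 0.0085) and that of GTR1 did not pass (0.19), nor did GTR1 pass without WUSp 2 (0.078). MGL, an enzyme that breaks down methionine, had 693 and 388 on WUSp and 2.89, 59.7 and 33.5 on FILp, where the arrays spread widely. Its difference of 4.85 ± 1.25 (floored 3.94, limma adjusted p = 0.016) did not pass without WUSp 1 (0.2), without WUSp 2 (0.091) or with the block (0.22). GTR2 rose after protoplast preparation (log2 difference 1.34), and MGL differed there by 0.10 without passing. The part of that preparation in their differences between WUSp and FILp was not tested.

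In the sugar transport list 1 gene was called higher and 0 lower of 9 tested and 21 measured (11.1%, against 15% of all tested probe sets). The called gene was SWEET1 (AT1G21460), a sugar uniporter of the plasma membrane. It had signals of 1006 and 708 on WUSp and 74.4, 88.7 and 108 on FILp, and 350.1 to 428 on CLV3p. The log2 difference was 3.24 ± 0.23 (SE, n = 2 and 3; limma adjusted p = 1.5e-07), 9.46-fold, and WUSp was the highest of the 4 sorts. SFP2 differed by 1.38 and TMT2 by -0.68 without passing.

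Few genes of calcium, wound and stress response passed. Of 22 tested among 31 measured, 2 were called higher and 0 lower (9.09%, against 15% of all tested probe sets). The median log2 difference was 0.35. With the bioC class as a block it was -0.12, and 0 were called higher and 1 lower. WRKY53, a factor of senescence and defence, had signals of 1377 and 558 on WUSp and 218, 427 and 242 on FILp (log2 difference 1.63 ± 0.47, SE, n = 2 and 3; limma adjusted p = 0.035), and it did not pass without WUSp 1 (0.33), FILp 1 (0.11) or FILp 3 (0.11), or with the block (0.42). PUB24, a U-box ubiquitin ligase of immunity, had 334 and 299.7 and 97.6, 155 and 84.4 (difference 1.55 ± 0.36, adjusted p = 0.0084) and did not pass without WUSp 1 (0.091), WUSp 2 (0.051) or with the block (0.23). Some genes of this list rose strongly after protoplast preparation and did not pass here. CML37, a calmodulin-like protein gene, rose by 7.63 on the log2 scale after that preparation, and its difference between WUSp and FILp was 0.09 ± 0.22 (limma adjusted p = 0.85). The same held for ORA47 (5.25 there and 0.38 here) and PUB19 (6.19 and 0.45), while STZ had 4.90 there and 0.59 here (adjusted p = 0.068). A new fit without the probe sets called in the protoplast pair gave 1603 calls among 12083 tested probe sets, and 1581 of them were among the 2253. AT5G13200, which is not in the list, rose in that pair by 3.44 and was called higher here by 3.47 (limma adjusted p = 0.0045). With the bioC class as a block its difference was 2.36 and did not pass (0.084). The heat shock gene AT5G48570 differed by 0.17.

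**Figure D5:**
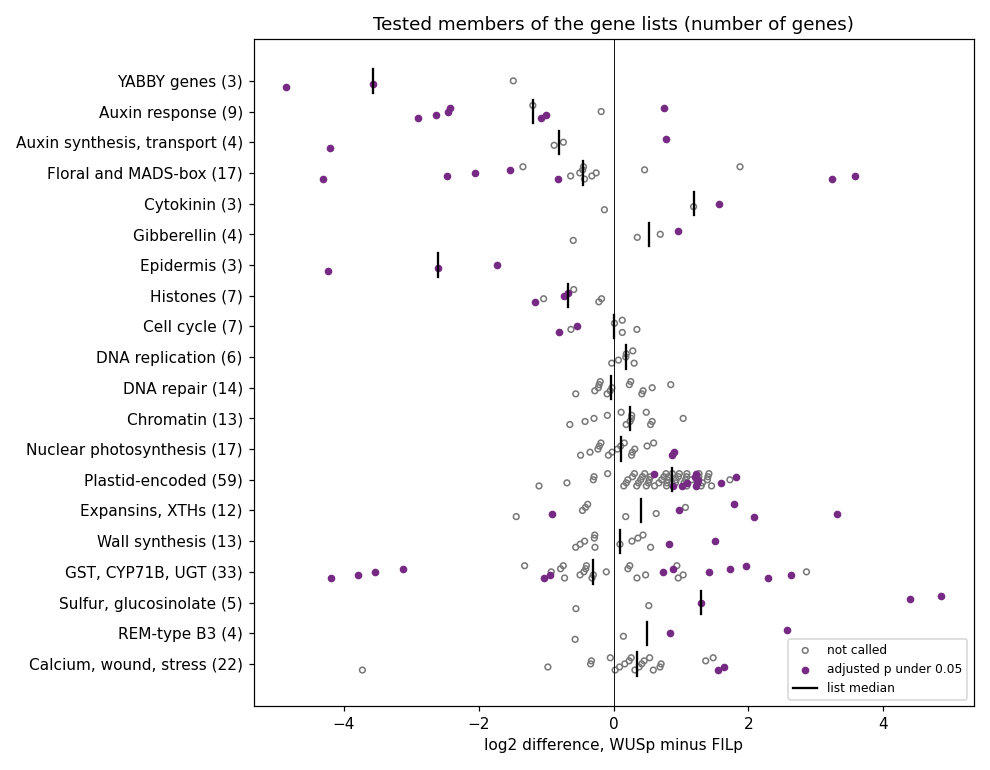
Each point is the log2 difference (WUSp minus FILp) of 1 tested gene, in rows by gene list with the number of tested genes in brackets, filled where the adjusted p was under 0.05, and black bars are list medians. All tested YABBY and epidermis genes lie left of 0, as do 8 of 9 auxin response genes. Of the plastid-encoded transcripts 54 lie right of 0 and 5 left of it. The GST, CYP71B and UGT row has called genes on both sides.

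Among probe sets assigned to 1 gene, those with the largest floored differences were led by genes that the tables name only by locus. Probe sets without a single assigned gene were not ranked, although they made up 10 of the 15 largest called floored differences without overlap on the WUSp side and 11 of the 15 on the FILp side. On the WUSp side AT3G15650 had signals of 5455 and 7253 on WUSp and 48.4, 91.9 and 52.2 on FILp, a log2 difference of 6.68 ± 0.25 (SE, n = 2 and 3; limma adjusted p = 3.5e-10). AT1G26680 had 1404 and 1281 and 3.95, 5.19 and 25.5 (difference 7.38 ± 0.70, floored 5.98, adjusted p = 2.3e-05). The FILp signals of AT1G26680 were near or under the floor. Those of AT3G15650 were above it, and its floored difference was also 6.68. Both WUSp arrays were high for both genes. On the FILp side AT1G71870 had 30.2 and 49.9 on WUSp and 1179, 1109 and 1033 on FILp (difference -4.83 ± 0.43, limma adjusted p = 2.6e-06), and AT2G03980 54.1 and 73.0 and 1434, 1715 and 2063 (difference -4.77 ± 0.49, adjusted p = 4.5e-05). All 4 had arrays far apart between the sorts. SBT1.3, a subtilisin-like protease, was among the 15 largest of the ranked genes on the FILp side, with 74.2 and 396 on WUSp and 3180.5, 3159.6 and 2761 on FILp (difference -4.14 ± 0.52, limma adjusted p = 0.00024).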

How the data were processed

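Sorted cells gave total RNA, which was biotin-labelled for Affymetrix arrays, per the labels. The deposited values are linear intensity. MAS5 made them, per the submitters' processing notes, and its version is not given in the sources used here. A trimmed mean (2nd to 98th percentile) was 499.8 for each array, which is the scaling the authors' values carry, and no normalization was added. Precision is limited by the number of arrays. Whether replicates were separate sorts or plants is not in the labels, and p-values then cover only the spread between these arrays, which may be technical.

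The log2 signals of the 11 arrays of sorted cells were fitted by limma (version 3.58.1, R version 4.3.3) with a mean-dependent, robust moderation of variances, a procedure tested on simulated data. Of 22810 probe sets, 64 controls were set aside, and 15052 were tested because 2 or more arrays had them above that array's 40th percentile, with Benjamini-Hochberg adjustment. The protoplasting pair was fitted alone, on 13911 probe sets. The probe table gives 1 gene for 13513 probe sets, several for 503 and none for 8730, and 13436 of the first matched the TAIR10.1 gene table. The probe set with the highest mean represents a gene. The log2 differences of lists are described by counts and medians without a test.

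Arrays and lists were chosen with earlier results of these data known. The 6 lists of the closing observations were written after values were seen, and 5 genes were removed from lists because their symbol belongs to another gene. Genes named are UFO, YAB5, CLV3, the 15 largest non-overlapping floored calls in each direction (of those with no symbol, 2 a side are given), up to 6 called members per list, members of lists with at most 6 measured genes, and the markers. Other members named were chosen after their values were seen. Alternatives were other normalizations, filters, moderation, array weights and samples, the replicate number or bioC class as a block, removal of protoplasting calls, and leaving out each array. No sequences were used here.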

Additional observations from a re-analysis of the deposited data

How the results depend on the processing

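The counts of called probe sets depended most on how the spread was estimated and on single arrays. Against 2253 calls (1096 higher, 1157 lower in WUSp), array weights gave 3587 (1707 higher, 1880 lower) and a fit of only the 5 arrays compared gave 3342 (1600 higher, 1742 lower), in which CLV3 did not pass the filter. Leaving out 1 array gave 980 to 1888 calls, 421 to 952 of them higher and 559 to 936 lower, fewest without WUSp 1. Without a WUSp array the lone one is assumed to vary like the other groups. With the replicate block, the replicate number as a block, 2226 probe sets were called (1075 higher, 1151 lower), and AGL42, AUR1, IQD28, MYC4, ndhJ and AT2G32150 lost their call among the genes checked. Same-numbered WUSp and FILp arrays deviated from their group means with correlations of -0.12 and -0.09, so the numbers were not taken to pair the samples. With the bioC class as a block 1872 were called (798 higher, 1074 lower). The other alternatives gave 1603 to 2788 calls. Of 152 genes checked under 18 alternatives, 115 were called, 58 kept their call under every alternative that tested them and 0 reversed. An alternative in which a gene was filtered out or removed was not counted for that gene. Among all results of these genes 238 lost a call and 18 gained one, and the cause was not tested. Signals near background limit the size of differences: 88 probe sets called lower had a WUSp mean, and 37 called higher a FILp mean, under the floor, yet 2242 calls were also made with the floor.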

Other observations

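Some families stood out only after the values were seen, so their counts are descriptions. The IQD genes, which encode calmodulin-binding scaffold proteins of microtubules and membranes, split in both directions, with 3 called higher and 3 lower of 12 tested (15% of all tested probe sets were called), and with the bioC class as a block 1 higher and 1 lower. IQD26 had signals of 1225 and 1414 on WUSp and 123.3, 72.4 and 145 on FILp (log2 difference 3.60 ± 0.24, SE, n = 2 and 3; limma adjusted p = 9.6e-08), and CLV3p was as high as WUSp (1052 to 1156). IQD16 had 9.19 and 8.76 on WUSp, under the floor, and 72.4, 79.6 and 115 on FILp (difference -3.28 ± 0.58, floored -2.16, adjusted p = 0.0011). IQD19 had 3.90 and 32.2 and 135, 119 and 115 (difference -3.45 ± 0.83, floored -2.29, limma adjusted p = 0.011) and did not pass without WUSp 1 (0.2) or with that block (0.091). TRM genes, whose proteins recruit the TON1 complex to microtubules, had 1 called higher and 2 lower of 12 tested and 15 measured. This was 25%, against 15% of all tested probe sets. TRM24 had 15.1 and 26.7 on WUSp and 189.8, 261 and 232 on FILp (difference -3.49 ± 0.34, limma adjusted p = 3.9e-06). TRM31 differed by -1.09, which did not pass without WUSp 1 (0.062) or WUSp 2 (0.062), and TRM21 by 0.60, which did not pass when any 1 of the 5 arrays was left out (0.074 to 0.29).

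Beta glucosidase genes had 4 called higher and 0 lower of 8 tested and 22 measured (7.28% of all tested probe sets were called higher), with a median log2 difference of 1.20, and with the bioC class as a block 2 were called higher and 1 lower. BGLU46, of a group that acts on lignin precursors, had signals of 1124 and 1013 on WUSp and 53.3, 153 and 147 on FILp (log2 difference 3.33 ± 0.57, SE, n = 2 and 3; limma adjusted p = 0.0017), and BGLU15 had 385 and 299 and 97.2, 81.5 and 118 (difference 1.79 ± 0.29, adjusted p = 0.0006). BGLU16 and BGLU25 were called with smaller differences and did not pass without WUSp 1 (0.28 and 0.066) or WUSp 2 (0.06 and 0.067), nor with that block (0.19 and 0.06), nor BGLU16 without FILp 1 (0.089). Among cold-regulated and dehydrin genes 2 were called higher and 0 lower of 6 tested and 7 measured (33.3%, against 15% of all tested probe sets). LTI30, a dehydrin, had 4625 and 1451 on WUSp 1 and 2 and 107, 339 and 176 on FILp (difference 3.80 ± 0.48, limma adjusted p = 0.00024). COR47, also a dehydrin, had 4852 and 2131 and 272, 549.6 and 374 (difference 3.07 ± 0.33, adjusted p = 2.0e-05). WUSp 1 was at least 2-fold above WUSp 2 for both, and COR47 also rose after protoplast preparation (1.14).

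Other basic helix-loop-helix genes went in both directions. The basic helix-loop-helix gene ALC, which acts with SPT in the fruit, had signals of 401 and 295 on WUSp and 759, 1257 and 1146 on FILp (log2 difference -1.58 ± 0.23, SE, n = 2 and 3; limma adjusted p = 0.00017). ATMYC1, a factor of epidermal cell fate, had 14.2 and 42.3 and 255, 323 and 304 (difference -3.58 ± 0.34, adjusted p = 3.1e-06), and NAI1, needed for endoplasmic reticulum bodies, had 29.3 and 44.9 and 212, 175 and 135 (difference -2.24 ± 0.35, adjusted p = 0.00044). MYC4, a factor of jasmonate response, was called higher, as SPT was, by 1.32 and did not pass without WUSp 1 (0.24), WUSp 2 (0.15), FILp 1 (0.15) or FILp 3 (0.11), or with the bioC class as a block (0.47). Of 6 genes in this list 2 were called higher, SPT and MYC4, and 3 lower (83.3%, against 15% of all tested probe sets). In the CLE peptide list, which holds CLV3, CLE27 had 2.56 and 38.6 on WUSp and 111, 141 and 103 on FILp (difference -3.56 ± 1.05, floored -2.10, limma adjusted p = 0.032). Its WUSp arrays lay far apart, and it did not pass without WUSp 1 (0.44), FILp 1 (0.082), FILp 2 (0.093) or FILp 3 (0.084), or with the bioC class as a block (0.061).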
